A study of Arabidopsis thaliana with 12 samples.

Results

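The comparison described here is that of wild-type Arabidopsis thaliana seedlings of the accession Col-0 treated with sodium nitroprusside (SNP) against untreated ones (Mock), a pair of groups of 3 RNA-sequencing libraries each. These 6 libraries are part of 12 in all, the others being ap1/cal seedlings that were normalized on their own and are not used. Both groups were whole seedlings 7 days after germination on MS medium, and they differ by the presence of 1 mM SNP for 24 h. The study's methods give 3 biological replicates for each condition of its RNA-sequencing. The passage describes ap1/cal apices and also cites the deposit that holds these seedling libraries. No source used here says whether the seedling replicates came from separate plates or sowings. The p-values measure the spread between these libraries. Of 21812 genes in the table, the 20271 with a normalized value of at least 10 in 3 or more of the 6 libraries were tested, and 1541 were not. At the limit, the third-highest value was 10.045 for AT1G60130, which was tested, and 9.9978 for AT4G11810, which was not. Of the genes tested, 251 passed through the SNP libraries alone and 525 through the Mock libraries alone, which fixed their direction. SMR5, named below, is in the first set, and SULTR1;1, bHLH100, RSL2 and NRT2.1 are in the second.

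Nitric oxide (NO) is a gaseous signal that modifies proteins on cysteine, binds to heme and iron, and inhibits cytochrome c oxidase of the mitochondria. SNP is an iron complex that carries NO together with cyanide ligands, and is used as an NO donor. Cyanide likewise inhibits cytochrome c oxidase, and iron is a nutrient with its own transcriptional response, so the genes for respiration, cyanide removal and iron are described along with those for NO. In plants, stress programs such as the heat shock response, detoxification by glutathione transferases and immune signalling are set in part at the level of transcripts, as are the programs of cell expansion and photosynthesis. Transcript levels alone do not measure the activity of a pathway.

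Values are normalized signals per gene, i.e. estimated reads divided by 1 size factor per library, and are listed in the order of replicates 1, 2 and 3. Fold changes are on the log2(value + 1) scale, SNP against Mock, with the standard error (SE) and the Benjamini-Hochberg adjusted p from limma over all 20271 genes. A value in parentheses after a gene name is its log2 fold change. A gene was called higher or lower where the adjusted p was below 0.05 and the fold 1.5 or more. The libraries held 22483300 to 45402000 estimated reads, and the floors given here, which cover counting error alone, are 3 such reads per library. Libraries of a group correlated at 0.983 to 0.993 and libraries of different groups at 0.797 to 0.832 across genes, and 93.1% of the variance lay on the first component. After the authors' normalization the values of a library summed to 26905367 ± 1072993 in Mock and 38011067 ± 1072620 with SNP (SD, n = 3 each). When every library is scaled to the same sum, the median change over all genes moves from -0.01 to -0.51. All directions are therefore relative to the authors' scaling. Mock replicate 1 held more organelle transcripts than the other Mock libraries and was the highest Mock library for 47.0% of the genes called higher, against 21.9% and 31.0% for replicates 2 and 3. It was the highest for 40.9% of the genes called lower and for 40.4% of all genes tested. Fold changes also followed gene length. The shortest decile of genes had a median of 0.4 and the longest decile one of -0.43.

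Markers of both shoot and root were detected in every library. Of 5 shoot markers 1 was called higher and 0 lower (median 0.47), of 8 root markers 1 was called higher and 5 lower (median -1.34), and of 4 xylem markers 0 were called higher and 4 lower (median -1.35). With library-size scaling the shoot markers had 0 higher and 1 lower (median -0.03) and the root markers 0 higher and 7 lower (median -1.84). The summed share of the shoot markers was 5.03 ± 0.178% in Mock and 4.36 ± 0.0565% with SNP (SD, n = 3 each). The lowered root markers were SHR and SCR, regulators of the ground tissue, and the root hair genes RHD6, COBL9 and EXPA7. The endodermis genes CASP1 and CASP2 changed by -0.43 and -0.2 and were not called. Of the other lists, ATML1 of the epidermis, FAMA of guard cells and SUC2 of the phloem were lower (-0.81, -1.07 and -1.26), while PDF1 of the epidermis, MYB60 and SPCH of the guard cell lineage and APL of the phloem were not called (0.41, 0.34, -0.17 and 0.36). The signs of PDF1, MYB60 and APL turned with library-size scaling (-0.09, -0.16 and -0.14) and that of SPCH without SNP replicate 1. Of 7 seed storage protein genes 2 were in the table and 0 passed the filter. Of 4 flower and pollen genes, PI passed it, with a change of -0.21 that was not called.

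SNP altered the level of most transcripts measured. In all, 11409 genes (56.3%) were called, of which 5494 (27.1%) were higher and 5915 (29.2%) lower. These shares are the background against which the counts below are read. The change was at least 2 on the log2 scale for 1589 genes called higher and 1497 called lower, and at least 4 for 413 and 174. With library-size scaling 3179 genes were called higher and 9329 lower, and 0 of the 11409 genes were called with the other sign. In whole seedlings, fewer cells of a type and less RNA per cell cannot be told apart.

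**Figure D1:**
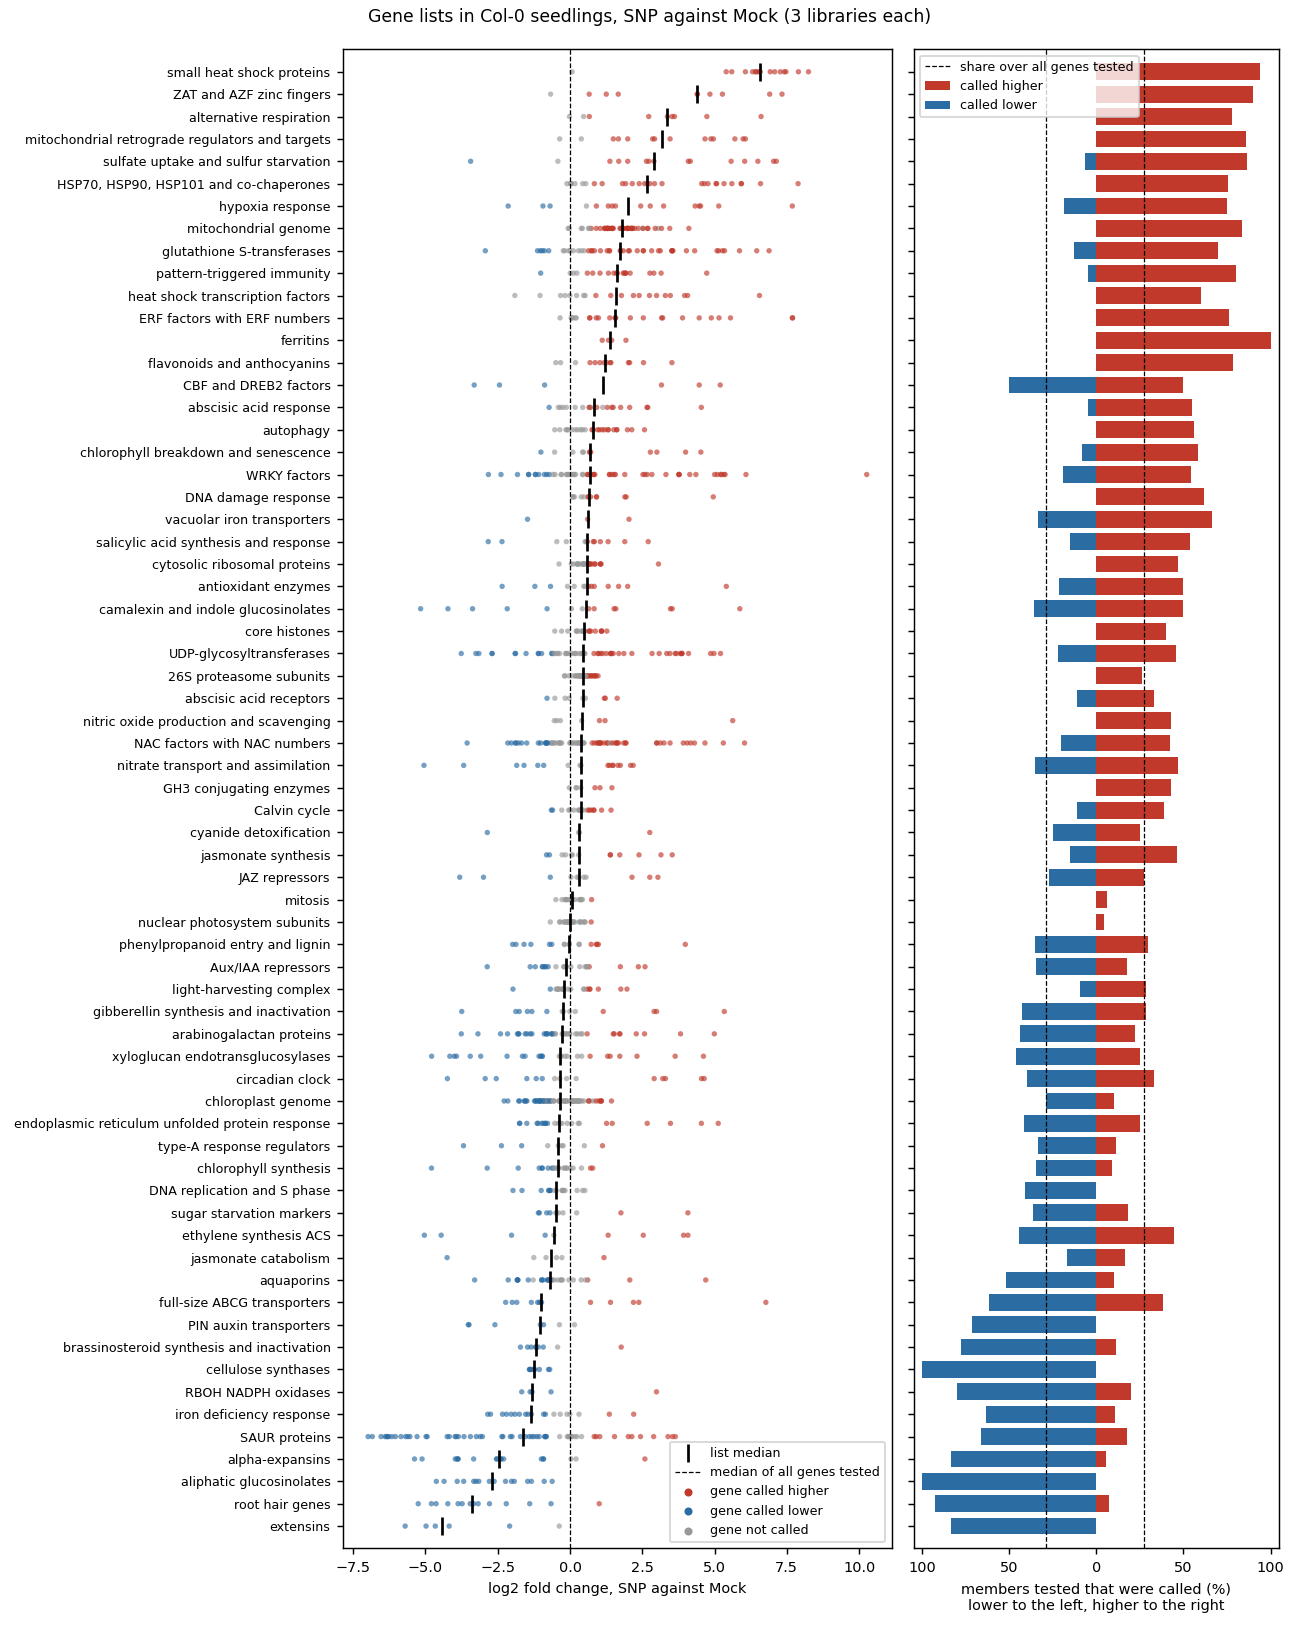
Gene lists ordered by their median. Left, log2 fold change of each tested member (points, red for called higher, blue for called lower, grey for not called), the list median (black bar) and the median of all genes (dashed). Right, percentage of tested members called higher (to the right) or lower (to the left), with dashed lines at 27.1% and 29.2%, the shares over all genes. Small heat shock proteins have the highest median, 6.56, and extensins the lowest, -4.42.

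The largest gains in signal were those of a gene for Rubisco and of genes for oxidoreductases, glutathione transferases and chaperones. The small subunit of Rubisco, RBCS1A (AT1G67090), had values of 391075, 347358 and 409577 in Mock and 639680.1, 583057 and 599776 with SNP, and its change of 0.67 (SE 0.14, adjusted p = 0.0015) was 0.17 with library-size scaling, below the fold required. The next were OPR1 (AT1G76680), a 12-oxophytodienoate reductase, and the glutathione transferase GSTU19, whose means went from 10955 ± 2364 to 226182 ± 13445 and from 35605 ± 7027 to 203878 ± 10763 (SD, n = 3 each). The polyubiquitin gene UBQ10 rose by 2.06 and the cytosolic glyceraldehyde-3-phosphate dehydrogenase GAPC1 by 2.53. AT4G01870, a tolB-like protein, APR3 of sulfate assimilation, the glutathione transferase GSTF8 and the chaperones HSP70 (AT3G12580) and HSP70B made up the rest of the 10, with log2 fold changes of 4.53, 4.16, 3.56, 4.64 and 7.89. Reads of OPR1, UBQ10, APR3 and GSTF8 are uncertain, because of overlapping genes or shared sequence.

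The largest losses of signal came from light harvesting, the cell wall and PYK10, a glycosyl hydrolase. PYK10 (AT3G09260) had values of 164308, 129334 and 134155 in Mock and 20593, 18078 and 21383 with SNP, a log2 fold change of -2.83 (SE 0.12, adjusted p = 6.1e-08). The PYK10-binding protein PBP1 (AT3G16420) also fell (-1.33). The light-harvesting genes LHCB1.2 and LHCB1.4 changed by -0.68 and -1.97, the wall glycoprotein extensin EXT3 by -2.09, the tonoplast aquaporin TIP2 by -1.8 and the lipid-transfer-like gene AT2G45180 by -2.0. Catalase 3 (CAT3), which breaks down hydrogen peroxide, went from 30696 ± 1033 to 6062 ± 822 (SD, n = 3 each), a change of -2.35. The chloroplast gene ATCG00480 and the thiazole synthase gene THI1 of vitamin B1 synthesis changed by -0.87 and -0.61. THI1 was not called without Mock replicate 3 (-0.55). Overlap or shared sequence leaves the reads of PYK10, AT3G16420, LHCB1.2, LHCB1.4 and EXT3 uncertain, and ATCG00480 was not assessed for either.

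Among genes with a mean of at least 100 in both groups, the steepest rises were those of a UDP-glycosyltransferase, AT1G05675, and of chaperones. AT1G05675 had values of 229, 27.2 and 87.2 in Mock and 25113, 21463 and 21797 with SNP and rose by 8.1 (SE 0.60, adjusted p = 2.2e-06). Its groups are far apart although the Mock libraries differ among themselves. CYP81D8, a cytochrome P450, rose by 7.53, LSU1, named for its response to low sulfur, by 7.14, the sigma factor binding protein SIB1 by 7.05 and the zinc finger gene ZAT12 by 6.91. The other 5 encode HSP70B (7.89) and the small heat shock proteins HSP17.6A, HSP23.6, AT1G59860 and HSP17.6II (7.47, 7.41, 7.27 and 7.08). The steepest falls were those of the B-box zinc finger genes BBX15 and BBX14 (-5.18 and -4.35), the extensin-like gene AT3G54580 (-5.01), the transporters AT4G34950 (-4.91) and PHT1;1 for phosphate (-4.59), PORB (-4.79), which makes chlorophyllide in the light, the glucosinolate enzymes CYP83A1 and CYP83B1 (-4.62 and -4.22), the peroxidase AT1G05250 (-4.57) and the receptor-like kinase AT3G28040 (-4.42). BBX15 had values of 3955, 4499.9 and 4410.5 in Mock and 108, 139.6 and 106 with SNP. The counting of BBX14, PHT1;1, PORB and AT1G05250 is uncertain for the same reasons.

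Some genes were at the floor in 1 group. 43 genes called higher had at most 3 estimated reads in each Mock library, and 104 called lower had at most 3 in each SNP library. As values, these floors were 2.34, 2.82 and 2.42 in Mock and 5.23, 2.49 and 3.5 with SNP, so the counts are not on an equal footing. Genes at the floor in 1 group passed the filter through the other, which fixed their direction. The first set was led by WRKY30 (AT5G24110), a stress-linked transcription factor with values of 1.56, 1.88 and 1.61 in Mock and 3624, 2880.2 and 3421 with SNP, which makes it at least 1309-fold higher with SNP. It was followed by AT3G54530, of unknown function, the F-box gene AT4G04480 and the NAC factor AT3G12910, at least 164-fold, 140.2-fold and 118-fold higher. The other 6 of the 10 with the highest SNP mean, among them the receptor-like kinase CRK20, were at least 29.5-fold to 87.9-fold higher. In the reverse set 7 of the 10 genes with the highest Mock mean were SAUR genes, which respond to auxin in expanding organs. SAUR20 lay at 177, 143 and 155 in Mock and 0, 1.66 and 0 with SNP, at least 42.3-fold lower with SNP, and SAUR24, SAUR19 and SAUR22 were at 0 in every SNP library. The others were AT3G06460 of the GNS1/SUR4 family, AT3G18450 of the PLAC8 family and the defensin PDF1.2b, at least 26.7-fold, 18.6-fold and 15.9-fold lower. Among these sets of 10, AT4G04480, AT1G03050, AT3G54520, AT3G06460, SAUR64 and SAUR19 overlap or share sequence with other genes, so that their reads are uncertain.

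Small heat shock protein genes had the highest median of the lists. Small heat shock proteins are holdases that keep unfolded proteins soluble, and 15 of 16 members tested were called higher and 0 lower, with a median log2 fold change of 6.56. The exception, AT4G21870, changed by 0.07. HSP17.6A lay at 547, 135 and 259 in Mock and 51464, 49457 and 42469.5 with SNP, a log2 fold change of 7.47 (SE 0.40, adjusted p = 2.8e-07), and HSP22.0 at 115, 13.2 and 30.7 in Mock and 10015, 9743 and 7282 with SNP, a change of 7.9. The largest change, 8.25, was that of AT1G52560. Mock replicate 1 was the highest Mock library for 13 of the 16 genes, and without it the median rose to 7.05, while without Mock replicate 2 it was 6.17. For all members but AT4G21870 every SNP library was above every Mock library, where over all genes the groups did not overlap, in either direction, for 79.0%. Correction for exon length and GC content gave a median of 6.21.

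The ATP-dependent chaperones HSP70, HSP90 and HSP101, with their co-chaperones, refold or disaggregate proteins. Here 22 of 29 members tested were called higher and 0 lower, with a median log2 fold change of 2.67. HSP70B had values of 905, 226 and 362 in Mock and 109593, 105405 and 85633 with SNP, the disaggregase HSP101 of 1719, 639 and 757 in Mock and 94907, 98084 and 80013 with SNP, and HSP90.1 of 2621, 1677 and 1845 in Mock and 102397, 104623 and 86065 with SNP. These are log2 fold changes of 7.89, 6.59 and 5.6. The co-chaperones BAG6 and FES1A rose by 5.93 and 5.92. Together the 45 heat shock protein genes in the table took 0.512 ± 0.0322% of the library signal in Mock and 3.44 ± 0.265% with SNP (SD, n = 3 each; exact permutation test, two-sided p = 0.1, the smallest that 3 against 3 libraries can give). Of the heat shock transcription factors, which activate these genes or, as class B members, repress them, 12 of 20 were called higher and 0 lower (median 1.59), and with library-size scaling 11 higher and 4 lower. HSFA2 lay at 241, 64.2 and 71.4 in Mock and 10363, 10942 and 8339.9 with SNP, a change of 6.55 (SE 0.42, adjusted p = 9.1e-07). HSFA4A, HSFB2A and HSFA7B rose by 4.07, 3.96 and 3.47, while HSFA1A and HSFA1B, which are constitutive activators, changed by 0.23 and -0.33 and were not called. An overlapping gene or shared sequence makes the values of HSP101, FES1A and HSFA1B uncertain.

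The unfolded protein response of the endoplasmic reticulum was split. In this list 6 of 24 members were called higher and 10 lower, with a median of -0.37. The transcription factor BZIP60, which is activated by splicing of its mRNA, rose from 872 ± 233 to 9474 ± 385 (SD, n = 3 each), by 3.47. ERDJ3A, TIN1 and BIP3, known as tunicamycin-inducible, rose by 5.13, 4.54 and 2.67. The lectin chaperones calnexin CNX1 and calreticulins CRT1A and CRT1B fell (-1.75, -1.11 and -1.14), and so did the luminal chaperones BIP2 and HSP90.7 (-0.92 and -0.78). Subunits of the 26S proteasome, which degrades ubiquitinated proteins, moved little and in 1 direction. 10 of 38 were called higher and 0 lower, the largest change was 0.97 for RPN13, and RPN6, PAF1 and RPT1A rose by 0.9, 0.87 and 0.85. Their median of 0.45 became -0.05 with library-size scaling, under which 0 were called higher and 2 lower. Autophagy genes, for bulk breakdown in the vacuole, held more rises, 14 of 25 with 0 lower (median 0.8), or 10 and 4 with library-size scaling. The ubiquitin-like genes AT3G06420 and AT3G15580, which share the name ATG8H in the annotation, rose by 2.58 and 0.95 (2.08 and 0.45 with library-size scaling, the latter below the fold required) and ATG18A, ATG18B and ATG18F, which bind phosphoinositides, by 2.14, 1.99 and 1.62. Assignment of reads to ERDJ3A, BIP2, RPT1A and AT3G15580 is uncertain, as they overlap or resemble other genes.

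Most genes of alternative respiration rose. The alternative oxidases pass electrons to oxygen without cytochrome c oxidase and are not blocked by cyanide or NO, and the type II NAD(P)H dehydrogenases feed them without complex I. Among 12 genes listed, 9 passed the filter, 7 were called higher and 0 lower, and the median was 3.37. The main isoform AOX1A lay at 2871, 1749.6 and 2609.8 in Mock and 71169, 59286 and 58544 with SNP, a log2 fold change of 4.73 (SE 0.17, adjusted p = 3.0e-08). AOX1D lay at 56.9, 6.58 and 19.4 in Mock and 2404, 2172 and 1591 with SNP, and its change of 6.61 ranged from 5.88 to 7.35 when 1 library was left out. NDB2, NDB4, NDA1 and NDA2 rose by 3.53, 3.61, 2.72 and 3.37, whereas NDB1 and NDB3 changed by 0.47 and -0.02 and were not called, with signs that turned under library-size scaling for NDB1 (-0.03) and without some libraries for NDB3. AOX1B, AOX1C and AOX2 were below the filter.

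Regulators and targets of mitochondrial retrograde signalling, by which a disturbed respiratory chain alters nuclear transcription, mostly rose as well. Of 14 genes 12 were called higher and 0 lower (median 3.19). The outer membrane AAA-ATPase OM66 lay at 90.46, 76.1 and 61.4 in Mock and 4463, 3569 and 3891 with SNP, a change of 5.7 (SE 0.15, adjusted p = 6.0e-09), and the oxidative stress marker AT2G21640 at 99.8, 60.1 and 95.3 in Mock and 6069.9, 5635 and 4419 with SNP, a change of 5.99. The small heat shock protein AT5G51440 and the CHCH family protein AT5G09570 rose by 6.07 and 4.96. The membrane-bound NAC factor ANAC013 rose by 4.67 and ANAC053 by 3.46. ANAC017, which is released from the endoplasmic reticulum by cleavage and is upstream of ANAC013, changed by -0.36 and was not called. For ANAC013, overlap or shared sequence leaves the assignment of reads uncertain.

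Most transcripts of the mitochondrial genome rose in the same libraries, while more of those of the chloroplast genome fell than rose. For the mitochondrial genome 69 genes were in the table and 48 passed the filter. Of these 40 were called higher and 0 lower, with a median of 1.79. The genes with the largest changes were ATMG00270, at 46, 14.1 and 13.7 in Mock and 382, 409.8 and 342 with SNP (4.11), ATMG00210, ATMG00900 and ATMG01360 (3.45, 3.17 and 2.94). ATMG00210 was at 0 in Mock replicates 2 and 3, its groups overlap, and its call was lost when either of them (2.63), SNP replicate 1 (3.35) or SNP replicate 3 (3.3) was left out. Mitochondrial transcripts held 0.0168 ± 0.00718% of the signal in Mock and 0.0347 ± 0.00357% with SNP (SD, n = 3 each), without overlap of the groups (exact permutation test, two-sided p = 0.1). Chloroplast transcripts held 1.599 ± 0.507% in Mock and 0.890 ± 0.146% with SNP (exact permutation test, p = 0.1), and of 79 genes 8 were called higher and 23 lower (median -0.36). With library-size scaling 1 was higher and 43 lower, and without SNP replicate 3 there were 8 and 13. The lowest were ATCG01280, ATCG01270, ATCG00170 and ATCG00180, with log2 fold changes of -2.28, -2.15, -1.78 and -1.75. ATCG01280 had values of 9544, 2915 and 3571 in Mock and 1128, 1091 and 703 with SNP. Overlap and shared sequence were not assessed for genes of either organelle genome, so the assignment of their reads is not known to be unique. Mock replicate 1 was the highest Mock library for 74 of the 79 chloroplast and 45 of the 48 mitochondrial genes. Without it the chloroplast share differed by -0.4155 percentage points in place of -0.708, 14 chloroplast genes were called higher and 18 lower (median -0.10), and 45 mitochondrial genes higher and 0 lower (median 2.06). The libraries were made from poly(A)-selected RNA, and organelle mRNAs mostly lack stable poly(A) tails. Whether the share of polyadenylated or carried-over organelle RNA differed was not tested.

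**Figure D2:**
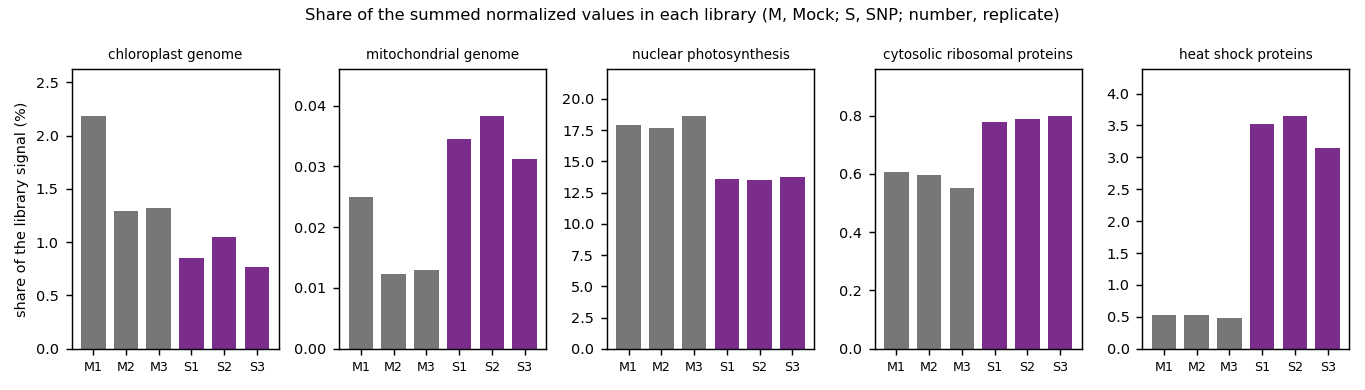
Share of the summed normalized values, in percent, held by 5 groups of genes in each library (M, Mock, grey; S, SNP, purple; replicates 1 to 3). Heat shock protein genes go from 0.512% to 3.44% on average, nuclear photosynthesis genes from 18.1% to 13.6%, and chloroplast transcripts are highest in Mock replicate 1.

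Of the genes for making or removing NO, the hemoglobin GLB1 changed most. GLB1, a non-symbiotic hemoglobin that oxidizes NO to nitrate, had values of 48.3, 30.1 and 50.9 in Mock and 2373, 1851 and 2183 with SNP, a log2 fold change of 5.63 (SE 0.19, adjusted p = 2.3e-08). GLB3, a truncated hemoglobin, rose by 1.21, whereas GLB2 changed by -0.55 and was not called. The nitrate reductase NIA2 rose by 1.02, and by 0.52 with library-size scaling, below the fold required. NIA1 changed by -0.46, NOA1 by -0.33 and the S-nitrosoglutathione reductase GSNOR1 by 0.4, none of them called. The sign of GSNOR1 turned with library-size scaling, to -0.1. Over the 7 genes 3 were called higher and 0 lower (median 0.4), and with library-size scaling 2 higher and 3 lower (median -0.1).

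Nitrate genes moved in both directions. In this list 8 of 17 members tested were called higher and 6 lower, with a median log2 fold change of 0.38, and the median turned to -0.12 with library-size scaling. The high-affinity transporter NRT2.1 lay at 77.2, 87.4 and 75.1 in Mock and 0, 3.32 and 2.33 with SNP, a change of -5.05, and NRT1.5, which loads nitrate into the xylem, at 4279, 5197 and 5157 in Mock and 385, 322 and 437 with SNP, a change of -3.68. The LBD factors LBD38 and LBD39, which repress nitrate uptake genes, fell (-0.91 and -1.84), and LBD37 rose by 1.37. UPM1, which makes the siroheme of nitrite and sulfite reductase, rose by 2.18, the root ferredoxin reductase RFNR1 by 2.09 and NLP7, a regulator of nitrate responses, by 1.66. Nitrite reductase itself, NIR1, changed by 0.38 and was not called. Reads of NRT2.1, NRT1.5 and UPM1 are uncertain, because of overlapping genes or shared sequence.

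Genes of low oxygen, a state in which group VII ERF factors are stabilized as NO and oxygen become scarce, were mostly higher. In this list 12 of 16 members tested were called higher and 3 lower, with a median log2 fold change of 2.01. HRE2, an ERF factor also named ERF71, lay at 60.8, 8.46 and 20.2 in Mock and 5444, 4749 and 4212 with SNP, a change of 7.69 (SE 0.54, adjusted p = 1.6e-06). The fermentation gene PDC1 for pyruvate decarboxylase lay at 166, 137 and 175 in Mock and 4377, 3579 and 3119 with SNP, and AT4G17260, annotated as a lactate/malate dehydrogenase, at 313, 290.3 and 342 in Mock and 8211, 6984 and 5898 with SNP. Their changes were 4.52 and 4.47. LBD41 and the cysteine oxidase PCO1, which marks ERF factors for degradation, rose by 5.15 and 4.33. Alcohol dehydrogenase ADH1 lay at 94.4, 48.9 and 67.8 in Mock and 251, 303 and 689 with SNP, a change of 2.45, with SNP replicate 3 well above the other SNP libraries. HRA1, a repressor within the pathway, sucrose synthase SUS4 and ACO1 fell (-2.14, -0.94 and -0.69). Overlap or shared sequence leaves the reads of ADH1 uncertain.

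Ferritin genes rose and most iron deficiency genes fell. Ferritins are plastid proteins that store iron, and all 4 were called higher. FER1 lay at 8408, 5414 and 7589.5 in Mock and 26387, 26101 and 28007 with SNP, a log2 fold change of 1.93 (SE 0.15, adjusted p = 2.5e-06). FER3, FER2 and FER4 rose by 1.44, 1.33 and 1.11. Of the vacuolar iron transporter-like genes VTL1 rose by 2.04, VTL5 fell (-1.47), and VTL2 rose by 0.61, a call that was lost without Mock replicate 1 (0.54), Mock replicate 2 (0.57) or SNP replicate 2 (0.51) and with library-size scaling (0.11). Genes induced when iron is scarce had 2 higher and 12 lower of 19 tested, with a median of -1.34. The chelate reductase FRO2 lay at 214, 178 and 279.5 in Mock and 40.3, 41.4 and 46.9 with SNP, a change of -2.34 (SE 0.18, adjusted p = 3.2e-06), and bHLH100, an activator of uptake, at 77.6, 25.7 and 23.59 in Mock and 1.38, 9.07 and 4.77 with SNP, a change of -2.85. IRT2, MYB10, bHLH38 and the phloem transporter OPT3 fell (-2.75, -2.2, -2.04 and -1.75). IRT1, the main root iron transporter, and FIT, its regulator, changed by -0.56 and -0.11 and were not called. The exceptions were PYE and BTS, negative regulators of the response, which rose by 2.2 and 1.36. With library-size scaling 2 members were called higher and 15 lower. The counting of FER1, FER2, FER4, MYB10 and bHLH38 is uncertain for the same reasons.

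Among the enzymes that remove cyanide, nitrilase 4 (NIT4), which hydrolyses beta-cyanoalanine, rose, with values of 452, 274 and 469.9 in Mock and 2789, 2378 and 2737 with SNP and a change of 2.76 (SE 0.19, adjusted p = 1.3e-06). CYSC1, the mitochondrial beta-cyanoalanine synthase, changed by 0.3, and the sulfurtransferase STR1 by 0.33, neither of them called. The sign of both turned with library-size scaling, to -0.2 and -0.17. The cysteine desulfhydrase DES1 fell (-2.86). With 1 of 4 called in each direction the list was near the background.

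Sulfur acquisition genes rose by large factors. Sulfate is taken up by SULTR transporters and reduced by the APR enzymes on the way to cysteine and glutathione. Here 13 of 15 members tested were called higher and 1 lower, with a median log2 fold change of 2.9. LSU1 lay at 291, 242 and 150.0 in Mock and 32961, 30371 and 29797 with SNP, a log2 fold change of 7.14 (SE 0.20, adjusted p = 9.7e-09), and SDI1, which represses glucosinolate synthesis under sulfur deficiency, at 132, 122 and 98.5 in Mock and 10560.5, 11145 and 10211 with SNP, a change of 6.5. The beta-glucosidase BGLU28 and the gamma-glutamyl cyclotransferase GGCT2;1, which degrades glutathione, rose by 7.04 and 6.04. APR1, APR2 and APR3 rose by 4.09, 2.73 and 4.16, and the regulator SLIM1 by 2.9. The root sulfate transporters parted, since SULTR1;2 rose by 2.64 and SULTR1;1 went from 58 ± 8.79 to 4.49 ± 1.21 (SD, n = 3 each), a change of -3.44. SULTR1;1 passed the filter through the Mock libraries alone, which fixed its direction. Among these, APR1, APR2, APR3 and SLIM1 overlap or share sequence with other genes, so that their reads are uncertain.

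Most genes for glutathione transferases rose, while other detoxification genes were more mixed. Glutathione transferases conjugate glutathione to electrophiles, and 32 of 46 members tested were called higher and 6 lower, with a median log2 fold change of 1.74. Their share of the library signal was 0.409 ± 0.0352% in Mock and 1.8 ± 0.0625% with SNP (SD, n = 3 each). GSTU24 lay at 2842, 1499.7 and 2192 in Mock and 81478, 73985 and 68345 with SNP, a change of 5.14 (SE 0.20, adjusted p = 4.0e-08), and GSTF6 at 1363, 512 and 978 in Mock and 37754, 32742 and 32205 with SNP, a change of 5.27. The largest changes were those of genes with Mock values of 293 or less, GSTU12, GSTU3, GSTU11 and GSTU4, with 6.88, 6.46, 5.86 and 5.35. GSTU3 was at 14, 0 and 4.04 in Mock and 387, 382 and 345 with SNP, and its change ranged from 5.42 to 7.37 when 1 library was left out. UDP-glycosyltransferases, which attach sugars to hormones and xenobiotics, held 27 of 59 higher and 13 lower (median 0.46), and with library-size scaling 22 higher and 21 lower (median -0.02). UGT74E2, which acts on indole-3-butyric acid, lay at 3722, 999 and 1893 in Mock and 80002, 71882 and 61650.3 with SNP, a change of 5.21, and UGT73C6, UGT73B5 and UGT73C5 rose by 4.98, 4.86 and 4.1. Of the full-size ABCG transporters, which export waxes, hormones and toxins, 5 of 13 were higher and 8 lower. ABCG40 rose by 6.77, with 455, 39.5 and 153 in Mock and 17808, 16112 and 12966 with SNP, and its change ranged from 5.87 to 7.62 when 1 library was left out. ABCG36 and ABCG43 rose by 2.19 and 2.38, while ABCG33 and ABCG32, which serves the cuticle, fell (-2.23 and -2.0). An overlapping gene or shared sequence makes the values of GSTF6, UGT73C6, UGT73B5, UGT73C5, ABCG43 and ABCG33 uncertain.

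Antioxidant enzymes diverged within families. In the list of catalases, superoxide dismutases and ascorbate peroxidases 7 of 14 were called higher and 3 lower (median 0.58). With library-size scaling 4 were higher and 4 lower (median 0.08), and with correction for length and GC content 4 and 2. CAT2, the main leaf catalase, lay at 24409.9, 23865 and 27911 in Mock and 83842, 82095 and 77787 with SNP, a change of 1.68, while CAT3 lay at 29554, 30968 and 31566 in Mock and 5207, 6846 and 6133 with SNP, a change of -2.35. The cytosolic peroxidases APX1 and APX2 rose by 1.99 and 5.41, whereas the chloroplast forms SAPX and TAPX changed by -0.09 and 0.14 and were not called. Copper/zinc dismutase CSD1 rose by 1.32 and the plastid iron dismutase FSD3 fell (-1.22). NADPH oxidases, which make superoxide at the plasma membrane, parted in a similar way. RBOHD, the main form in defense, lay at 852, 794 and 817 in Mock and 6616, 6317 and 6669 with SNP, a change of 2.99 (SE 0.07, adjusted p = 3.8e-09), and RBOHA, RBOHB, RBOHC and RBOHF fell (-1.67, -1.38, -0.66 and -1.31). Assignment of reads to CAT2, CSD1, RBOHA and RBOHB is uncertain, as they overlap or resemble other genes.

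**Figure D3:**
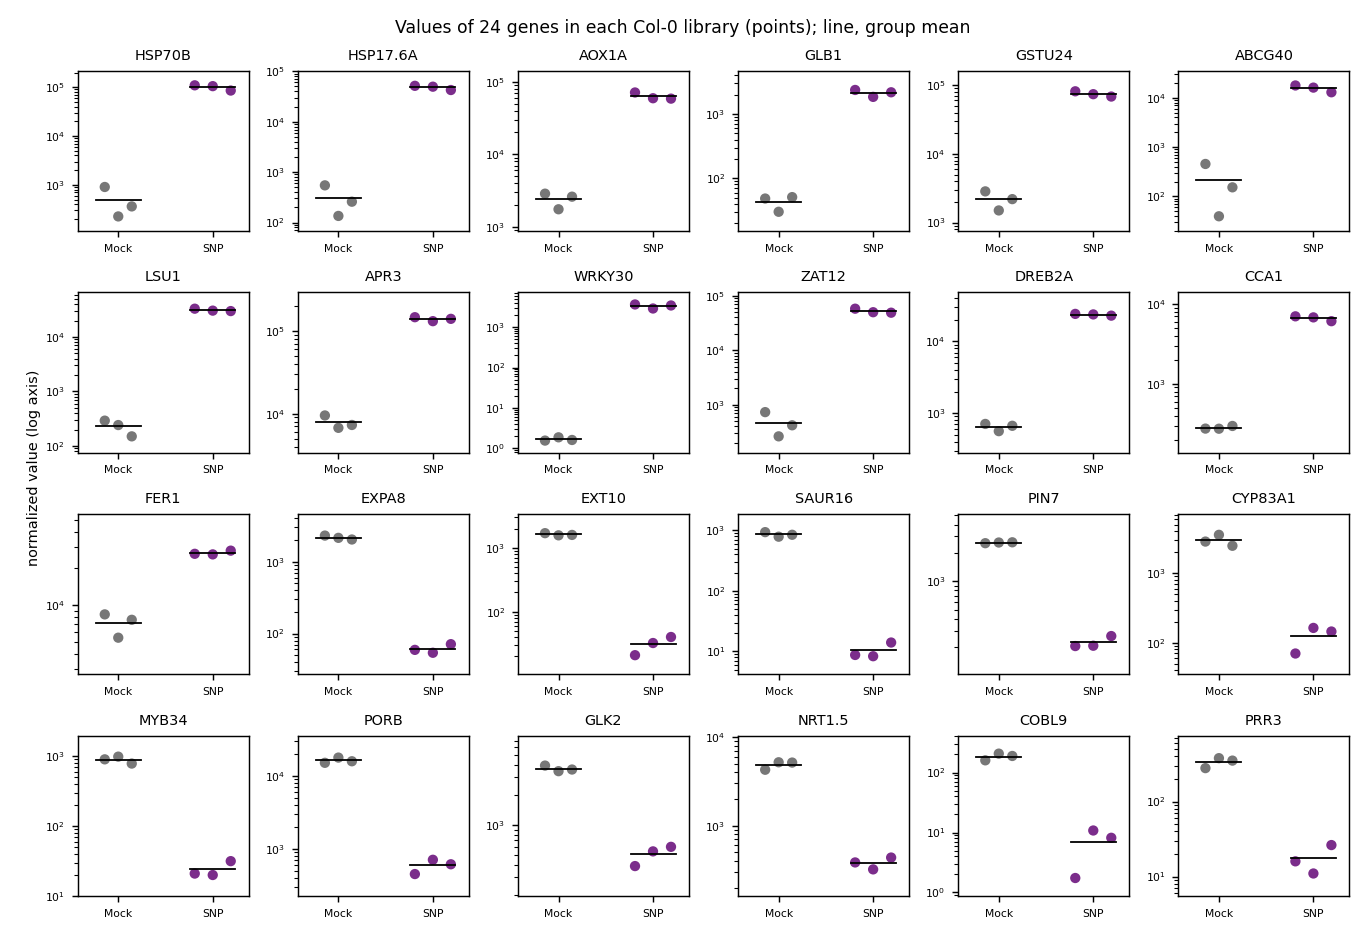
Normalized values (log axis, a scale of its own in each panel) of 24 genes in the 3 Mock (grey) and 3 SNP libraries (purple), with the group mean as a line. The groups do not overlap for any of these genes, nor, in either direction, for 79.0% of all genes tested. The Mock libraries spread most for ABCG40, HSP70B and HSP17.6A, with replicate 1 on top.

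The listed transcription factors of stress responses were shifted upward. WRKY factors bind W-boxes in defense genes, and 31 of 57 members tested were called higher and 11 lower, with a median log2 fold change of 0.67, and with library-size scaling 24 higher and 17 lower. WRKY40 lay at 423, 319 and 302 in Mock and 23744, 21019 and 25769.6 with SNP, a log2 fold change of 6.09 (SE 0.13, adjusted p = 3.4e-09), and WRKY33, the regulator of camalexin synthesis, at 757, 755 and 786 in Mock and 32224, 29210.2 and 30727 with SNP, a change of 5.32. After WRKY30 and WRKY40 the largest change was that of WRKY46 (5.36). WRKY24, WRKY14 and WRKY58 fell (-2.82, -2.39 and -1.82). ERF factors, named for their response to ethylene, were listed where they carry an ERF number, and 19 of these 25 were higher and 0 lower (median 1.57). Genes of the family without such a number are not in this list, so these counts do not describe the family as a whole. ERF98 lay at 54.6, 4.7 and 9.69 in Mock and 3513, 2610.1 and 3310.1 with SNP, a change of 7.7 that ranged from 7.0 to 8.64 when 1 library was left out, and ERF15 and ERF1 rose by 5.55 and 5.15. Zinc finger proteins of the ZAT and AZF type, repressors with an EAR motif, were higher in 9 of 10 cases and lower in 0 (median 4.4). ZAT11 lay at 44.5, 17.9 and 28.3 in Mock and 5462, 3817 and 5028 with SNP and ZAT12 at 732, 263 and 419.9 in Mock and 57837, 49832 and 48826 with SNP, changes of 7.33 and 6.91, and ZAT6 and ZAT10 rose by 5.27 and 4.84. For WRKY40 and WRKY33, overlap or shared sequence leaves the assignment of reads uncertain.

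NAC factors as a whole moved less. 31 of 73 were called higher and 15 lower, and with library-size scaling 23 and 24, with the median of 0.39 turning to -0.1. NAC004 rose by 6.04, ANAC081 by 5.3 and NAC032 by 4.3, and NAC058 fell (-3.56). The DREB family split by branch. DREB2A, an activator of drought and heat genes, lay at 708, 562 and 667 in Mock and 24159, 23760.0 and 22837 with SNP, a change of 5.2 (SE 0.09, adjusted p = 1.7e-09), and DREB2B and DREB2C rose by 3.16 and 4.47. The cold regulators CBF1, CBF2 and CBF3 fell (-3.31, -2.44 and -0.88). CBF2 lay at 212, 172 and 88.8 in Mock and 20.9, 31.6 and 28 with SNP, so that its groups do not overlap, and the call of CBF3 was lost without Mock replicate 1 (-0.86), Mock replicate 3 (-0.8345) or SNP replicate 2 (-0.71). Reads of ANAC081, DREB2A, DREB2B and CBF3 are uncertain, because of overlapping genes or shared sequence.

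Most genes of pattern-triggered immunity rose, whereas the balance of the salicylic acid genes turned with the scaling. For pattern-triggered immunity, in which surface receptors sense microbial molecules, 16 of 20 members tested were called higher and 1 lower, with a median log2 fold change of 1.62. The receptor-like kinase BIK1, which relays from receptors to RBOHD, lay at 839.9, 649 and 858 in Mock and 7313, 6627 and 6792 with SNP, a change of 3.15 (SE 0.11, adjusted p = 2.5e-08), and the MAP kinase MPK3 at 1337, 1275 and 1339.6 in Mock and 10266, 9134 and 10138 with SNP, a change of 2.9. The peptide precursor PROPEP3 rose by 4.73, and RLP23 was at the floor in Mock and at least 7.25-fold higher. FLS2, the flagellin receptor, fell (-1.01). In the salicylic acid list 7 of 13 were higher and 2 lower (median 0.6), and with library-size scaling 3 higher and 4 lower (median 0.1). NIMIN1 and NPR1, the coactivator of PR genes, rose by 2.7 and 1.32, and ICS1, which makes the precursor, by 0.8, below the fold required with library-size scaling (0.31). ALD1 and FMO1 of pipecolic acid synthesis fell (-2.83 and -2.35). Overlap or shared sequence leaves the reads of MPK3, RLP23, FLS2 and NPR1 uncertain.

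Jasmonate genes moved in both directions. The synthesis list had 6 higher and 2 lower of 13 tested, with a median of 0.3 that turned to -0.2 with library-size scaling. AOC1 lay at 779.8, 304 and 364 in Mock and 5662, 4425 and 5412 with SNP, a change of 3.54, the lipoxygenase LOX4 rose by 3.15, AOC3 by 2.39 and ACX1 by 1.72, while AOS, which makes the substrate of the AOC enzymes, fell (-0.81). Of the JAZ repressors, which jasmonate destroys and whose genes it induces, 3 of 11 were higher and 3 lower, shares near those over all genes (median 0.3, and -0.2 with library-size scaling). Without Mock replicate 1, 5 were higher and 2 lower. JAZ1 and JAZ5 rose by 3.04 and 2.76, and JAZ4 and JAZ7 fell (-3.81 and -2.99). Of the 6 catabolic genes tested 1 was higher and 1 lower, and with library-size scaling 0 and 5. AT5G05600 rose by 1.17, below the fold required under that scaling (0.67), and AT2G38240, an oxygenase, fell (-4.25). AT2G38240 lay at 487, 58.3 and 150.2 in Mock and 12.2, 4.99 and 7 with SNP, with Mock values that differ several-fold among themselves, and Mock replicate 1 was the highest Mock library for all 6 catabolic genes tested. CYP94B1, CYP94B3, CYP94C1 and JRG21 changed by -0.47, -0.28, -1.25 and -0.83 and were not called, and CYP94B3 turned sign without SNP replicate 2.

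Abscisic acid genes were more often higher than lower. In the response list 11 of 20 members tested were called higher and 1 lower, with a median log2 fold change of 0.82, and with library-size scaling 7 higher and 4 lower. The 2C phosphatases that switch the signal off were among those that rose. ABI2 lay at 251, 181 and 212 in Mock and 5313, 4908 and 4718 with SNP, a change of 4.54 (SE 0.12, adjusted p = 6.3e-09), and HAI1 and ABI1 rose by 2.66 and 1.29. The transcription factor ABF3 rose by 2.69, and the protective protein genes COR15A and RD29A by 2.06 and 1.75. NCED3, the rate-limiting enzyme of synthesis under drought, changed by -0.12 and was not called. Among the receptors PYL5, PYL2 and PYL1 rose by 1.63, 1.22 and 1.19 and PYL8 fell (-0.8), out of 9 tested (median 0.45). With library-size scaling 3 were higher and 3 lower (median -0.05). The counting of ABI1 and ABF3 is uncertain for the same reasons.

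The ACS genes, which make the ethylene precursor, parted evenly, with 4 of 9 called higher and 4 lower. ACS2 lay at 42.7, 28.1 and 33 in Mock and 639, 577 and 563 with SNP and ACS7 at 67.1, 59.2 and 73.5 in Mock and 1100.0, 974 and 1002 with SNP, changes of 4.08 and 3.93, and the stress isoform ACS6 rose by 2.53. ACS4 was at the floor with SNP and at least 11.2-fold lower, with values of 42.9, 47 and 35.5 in Mock and 0, 0 and 1.17 with SNP, and ACS5 fell (-4.46). Type-A response regulators, which cytokinin induces and which feed back on it, were lower for ARR6, ARR5 and ARR4 (-3.68, -2.37 and -1.67) and higher for ARR15 (1.12), the other 5 of 9 not being called. With library-size scaling 0 were higher and 7 lower, and ARR15 was at 0.66. ARR6 lay at 468, 365 and 384 in Mock and 31.4, 30.8 and 29.2 with SNP. ARR6 overlaps or shares sequence with another gene, so that its reads are uncertain.

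Genes of auxin response and transport were mostly lower. SAUR proteins activate the plasma membrane proton pump in elongating cells, and 11 of 62 members tested were called higher and 41 lower, with a median log2 fold change of -1.63. SAUR16 lay at 937, 787 and 847 in Mock and 8.72, 8.31 and 14 with SNP, a log2 fold change of -6.27 (SE 0.20, adjusted p = 1.6e-08). SAUR20, SAUR24, SAUR19 and SAUR29 were at the floor with SNP, at least 42.3-fold, 33.7-fold, 24.7-fold and 27.3-fold lower. Among the members that rose was SAUR34, by 3.54. Of the PIN auxin exporters, PIN7 lay at 2539, 2582 and 2596 in Mock and 205, 207 and 262 with SNP and PIN4 at 1958, 1673 and 1765 in Mock and 161, 159.9 and 155 with SNP, changes of -3.52 and -3.49, and PIN3 and PIN6 fell (-2.6 and -1.03). PIN5 and the root tip form PIN2 changed by -0.37 and 0.15, neither called, and PIN2 turned sign with library-size scaling (-0.34). Aux/IAA repressors, early auxin targets, were lower in 8 and higher in 4 of 23 (median -0.15; 13 and 3 with library-size scaling, and 8 and 7 without SNP replicate 2), with IAA29 at -2.86 and IAA30, IAA10 and IAA16 at 2.59, 2.36 and 1.74. GH3 enzymes, which conjugate auxin or other acids to amino acids, were higher for GH3.5, GH3.3 and GH3.6 (1.45, 1.04 and 0.86) and lower for 0 of 7 (median 0.37). With library-size scaling GH3.5 alone was called, and the median was -0.12. An overlapping gene or shared sequence makes the values of SAUR19 and IAA10 uncertain.

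Brassinosteroids and gibberellins, further hormones of cell expansion, are set by their synthesis and inactivation enzymes. In the brassinosteroid list 1 of 9 was called higher and 7 lower (median -1.18). Of the synthesis genes BR6OX2 lay at 455, 509 and 442 in Mock and 124, 149 and 155 with SNP, a change of -1.71, DET2, CYP90D1, BR6OX1, ROT3 and CPD fell (-1.47, -1.19, -1.18, -1.1 and -0.93), and DWF4 was not called (-0.43). Of the inactivating enzymes SOB7 rose by 1.77 and BAS1 fell (-1.34). The gibberellin list had 4 higher and 6 lower of 14 tested, with a median of -0.25. The inactivating 2-oxidases GA2OX6, GA2OX2 and GA2OX8 rose by 5.34, 2.99 and 2.91. GA2OX6 lay at 207, 135 and 174 in Mock and 7572, 6171 and 6951 with SNP. The activating 20-oxidase GA20OX1 was at the floor with SNP and at least 6.44-fold lower, and GA3OX1 and GA3OX2 fell (-1.47 and -1.88). GA3, an early synthesis gene, rose by 1.149. The inactivating enzyme GA2OX1 fell (-0.8), a call lost without Mock replicate 2 (-0.53), Mock replicate 3 (-0.85), SNP replicate 1 (-0.64) or SNP replicate 2 (-0.8438). Assignment of reads to DET2, ROT3, CPD and SOB7 is uncertain, as they overlap or resemble other genes.

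Cell wall genes of expanding cells were lower in most lists. Alpha-expansins loosen the wall at acid pH, and 1 of 18 members tested was called higher and 15 lower, with a median log2 fold change of -2.46. EXPA8 lay at 2302, 2140.5 and 2031 in Mock and 59.3, 54 and 71.1 with SNP, a log2 fold change of -5.12 (SE 0.12, adjusted p = 4.4e-09), and EXPA1 at 8798, 7455 and 8417 in Mock and 458, 565 and 632 with SNP, a change of -3.91. EXPA11, EXPA15 and EXPA17 fell (-5.38, -3.97 and -3.88), and EXPA16 was the member that rose, by 2.59. Extensins, hydroxyproline-rich glycoproteins that crosslink the wall, were lower in 5 of 6 cases and higher in 0 (median -4.42). EXT10 lay at 1695, 1568 and 1591 in Mock and 20.9, 32.3 and 40.2 with SNP, a change of -5.7, and EXT6, EXT13, EXT12 and EXT3 fell (-4.98, -4.66, -4.18 and -2.09). EXT4 changed by -0.37 and was not called. All 9 cellulose synthases tested were lower, the primary wall genes CESA1, CESA3 and CESA6 (-1.06, -1.22 and -0.75) as well as the secondary wall genes CESA4, CESA7 and CESA8 (-1.38, -1.39 and -1.32), with the largest change for CESA9 (-1.41). These are long genes, and with correction for length and GC content their median went from -1.24 to -0.80. For EXT10, EXT6, EXT3, CESA1, CESA3, CESA4, CESA7 and CESA8, overlap or shared sequence leaves the assignment of reads uncertain.

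Xyloglucan endotransglucosylases, which cut and rejoin xyloglucan, were divided, with 7 of 28 higher and 13 lower (median -0.35). XTH18 lay at 547, 439 and 522 in Mock and 12859.8, 10591 and 13621 with SNP, a change of 4.62 (SE 0.12, adjusted p = 5.7e-09), and XTH31 at 2903, 3173 and 2749 in Mock and 171, 161 and 218 with SNP, a change of -4.01. XTH13 fell (-4.79), and XTH26 was at the floor with SNP, at least 10.3-fold lower. Arabinogalactan proteins, proteoglycans of the cell surface, were higher in 9 and lower in 18 of 41 (median -0.27). AGP5 and AGP1 rose by 4.99 and 3.82, and FLA6 and AGP3 fell (-3.76 and -3.19). Aquaporins, the water channels of plasma membrane and tonoplast, were lower in 15 and higher in 3 of 29 (median -0.69). TIP2 lay at 59304, 46122 and 55904 in Mock and 15532, 14673 and 15956 with SNP, a change of -1.8, and NIP3;1 and PIP2;4 fell (-3.3 and -2.14). SIP1;2 and NIP6;1 rose by 4.69 and 2.07. Reads of NIP3;1, SIP1;2 and NIP6;1 are uncertain, because of overlapping genes or shared sequence.

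Root hair genes were among the most reduced. In this list 1 of 14 members tested was called higher and 13 lower, with a median log2 fold change of -3.39. The transcription factor RSL2 lay at 95.1, 97.7 and 112 in Mock and 0, 3.32 and 3.5 with SNP and COBL9 at 159.9, 207 and 189 in Mock and 1.74, 10.8 and 8.16 with SNP, changes of -5.25 and -4.79. The wall proteins LRX1 and PRP3 fell (-4.63 and -4.23), and RSL4, which sets hair length (-2.79). CSLD3, a cellulose synthase-like enzyme of hair tips, rose by 1.01, below the fold required with library-size scaling (0.51). Beside them stand the other root markers, of which SHR and SCR were lower and CASP1, CASP2 and MYB36 were not. MYB36, the regulator of CASP genes, rose by 0.79, likewise below that fold with library-size scaling (0.3). The summed share of the 8 root markers was 0.0126 ± 0.00117% in Mock and 0.0048 ± 0.000384% with SNP (SD, n = 3 each). Whether the number of root or hair cells differed was not tested.

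Photosynthesis genes of the nucleus had similar summed values in both groups, but a lower share with SNP. The 63 genes of the light-harvesting complexes, photosystems and Calvin cycle held 18.1 ± 0.489% of the signal in Mock and 13.6 ± 0.116% with SNP (SD, n = 3 each; exact permutation test, two-sided p = 0.1). Their summed values were 4867034 ± 296444 and 5170194 ± 135787. Of 21 light-harvesting genes 6 were called higher and 2 lower (median -0.22), while with library-size scaling 2 were higher and 11 lower (median -0.71) and with upper-quartile scaling 3 and 7. LHCB1.4 lay at 85443, 72292 and 88355 in Mock and 21911, 20179 and 20368 with SNP and LHCB4.3 at 879, 777 and 916 in Mock and 3623, 3192 and 3261 with SNP, changes of -1.97 and 1.97, and LHCB7 and LHCB2.3 rose by 1.76 and 0.98, the latter below the fold required with library-size scaling (0.48). Of 24 photosystem subunits PSAK was the one called, by 0.73 (median 0.01, and -0.49 with library-size scaling, where 0 were higher and 8 lower). In the Calvin cycle 7 of 18 were higher and 2 lower (median 0.37), and with library-size scaling 2 and 3 (median -0.13), with CP12-2 and SBPASE at 1.42 and 1.09. Overlap or shared sequence leaves the reads of LHCB1.4 and LHCB2.3 uncertain.

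Chlorophyll synthesis genes were lower more often than higher, a few of them by large factors. In this list 2 of 23 members tested were called higher and 8 lower, with a median log2 fold change of -0.42, and with library-size scaling 0 higher and 18 lower. PORB lay at 15076, 17777 and 15834 in Mock and 453, 711 and 617 with SNP, a log2 fold change of -4.79 (SE 0.15, adjusted p = 1.5e-08). The transcription factors GLK2 and GLK1, activators of photosynthesis genes, lay at 3946, 3467 and 3602 in Mock and 387, 543 and 603 with SNP and at 2415, 2423 and 2160.0 in Mock and 676, 661 and 679 with SNP, changes of -2.87 and -1.79. HEME2, a uroporphyrinogen decarboxylase, fell (-1.07), while HEMA1, which starts the pathway, and GUN4 rose by 0.71 and 0.79, below the fold required with library-size scaling. Of the genes for chlorophyll breakdown and senescence 7 of 12 were higher and 1 lower (median 0.68), and with library-size scaling 4 and 2. NYE1, the magnesium dechelatase, lay at 328, 315 and 328 in Mock and 2563, 2069 and 2082 with SNP, a change of 2.78 (SE 0.10, adjusted p = 2.5e-08), and NAP, a senescence NAC factor, SAG13 and SAG21 rose by 3.0, 4.53 and 4.0. Sugar starvation markers were lower in 4 and higher in 2 of 11 (median -0.48), and with library-size scaling lower in 8 and higher in 2. The beta-glucosidase DIN2 rose by 4.08 and TPS11 by 1.76, and TPS10 and BCAT2 fell (-1.09 and -1.06). The counting of PORB, GUN4, SAG21 and BCAT2 is uncertain for the same reasons.

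Under the authors' scaling, the listed genes for ribosomes and chromatin were shifted slightly upward. The 30 listed genes for cytosolic ribosomal proteins held 0.584 ± 0.0295% of the signal in Mock and 0.788 ± 0.0107% with SNP (SD, n = 3 each; exact permutation test, two-sided p = 0.1). 14 of 30 were higher and 0 lower (median 0.58), while with library-size scaling 1 was higher and 1 lower (median 0.08) and without the length and GC trend the median was 0.23. RPL10C, labelled a senescence gene in the annotation, stood apart with 13884, 8798 and 10982 in Mock and 97607, 93339 and 85239 with SNP, a change of 3.06. The summed values of the list had means of 157179 in Mock and 299360 with SNP, and RPL10C made up much of that rise. The higher share is therefore not a trait of the list as a whole. RPL18AA, RPL10B and RPS18A rose by 1.07, 1.05 and 1.05, below the fold required with library-size scaling. Of the core histones 8 of 20 were higher and 0 lower (median 0.5, and -0.0028 with library-size scaling, under which 4 were higher and 2 lower), led by HTB1, HTB2, HTA1 and HTA13 (1.27, 1.1, 1.09 and 1.08). DNA replication genes went the other way, with 0 of 17 higher and 7 lower (median -0.47). Their lower calls numbered 14 with library-size scaling and 3, beside 1 higher, with correction for length and GC content. The origin factors ORC1A, CDC6 and CDT1A fell (-1.97, -1.66 and -1.0), and MCM3 of the helicase (-0.74), a call that was lost without Mock replicate 2 (-0.56). Mitotic genes were near 0, with 1 of 17 higher, AUR2 (0.75), and 0 lower (median 0.07). With library-size scaling 0 were higher and 6 lower (median -0.42). Of the DNA damage genes 8 of 13 were higher and 0 lower (median 0.64), and with library-size scaling 3 and 0 (median 0.15). The kinase inhibitor gene SMR5 lay at 4.68, 4.7 and 4.04 in Mock and 167, 176 and 162 with SNP, a change of 4.96. It passed the filter through the SNP libraries alone, which fixed its direction. XRI1, AGO2 and BRCA1 rose by 1.94, 1.9 and 0.92, the last of these below the fold required with library-size scaling. Among these, RPL10C, RPL18AA, HTA13, ORC1A, CDC6, AUR2 and SMR5 overlap or share sequence with other genes, so that their reads are uncertain.

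Glucosinolates, the mustard oil precursors of Brassicaceae, were described by class. All 16 genes for aliphatic glucosinolates, made from methionine, were lower (median -2.71). CYP83A1 lay at 2855, 3569.7 and 2483 in Mock and 69.7, 163 and 145 with SNP, a log2 fold change of -4.62 (SE 0.29, adjusted p = 6.9e-07). CYP79F2 and the MYB activators MYB76 and MYB29 fell (-3.9, -4.36 and -3.68). For camalexin and indole glucosinolates, made from tryptophan, 7 of 14 were higher and 5 lower (median 0.54). The indole glucosinolate regulator MYB34 lay at 899, 983 and 782 in Mock and 20.9, 19.9 and 31.5 with SNP, a change of -5.17, and the enzymes CYP83B1 and CYP79B2 fell (-4.22 and -3.37). CYP81F2, which modifies indole glucosinolates for defense, lay at 304, 167 and 254 in Mock and 15143, 11804 and 14708 with SNP, a change of 5.87 (SE 0.20, adjusted p = 2.1e-08), and CYP71A12 and GGP1 rose by 3.54 and 3.47. PAD3, the last enzyme of camalexin synthesis, rose by 0.65, below the fold required with library-size scaling (0.15) and without Mock replicate 2 (0.55) or SNP replicate 1 (0.56). An overlapping gene or shared sequence makes the values of CYP79F2 uncertain.

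Flavonoid and anthocyanin genes were higher in 11 and lower in 0 of 14 (median 1.23), and with library-size scaling in 8 and 2. DFR, the first enzyme committed to anthocyanins, lay at 154, 219 and 96.1 in Mock and 1372, 1947 and 1888 with SNP, a change of 3.52 (SE 0.27, adjusted p = 2.5e-06), and LDOX at 184, 165 and 129 in Mock and 504, 756 and 756 with SNP, a change of 2.06. The glycosyltransferase AT4G14090, the transport-linked glutathione transferase GSTF12 and the activator PAP1 rose by 2.54, 2.02 and 1.18. In the phenylpropanoid and lignin list, which leads to the wall polymer lignin, 5 of 17 were higher and 6 lower (median -0.03), shares near those over all genes, and with library-size scaling 1 and 8 (median -0.53). CCR2 rose by 3.99, while FAH1, HCT and PAL3 fell (-1.98, -1.87 and -1.59). Assignment of reads to LDOX, AT4G14090, GSTF12 and CCR2 is uncertain, as they overlap or resemble other genes.

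Several clock genes of the morning rose and several of the evening fell. In this list 5 of 15 members tested were called higher and 6 lower, with a median log2 fold change of -0.35. The MYB repressors CCA1 and LHY, which peak at dawn, lay at 275, 274 and 297 in Mock and 7004, 6794 and 6089 with SNP and at 48.2, 39.4 and 70.6 in Mock and 1273, 1360.4 and 1275 with SNP, changes of 4.55 (SE 0.08, adjusted p = 1.7e-09) and 4.64 (SE 0.19, adjusted p = 5.4e-08). PRR9, RVE8 and RVE1, also of the morning, rose by 3.3, 3.21 and 2.91. PRR3 lay at 279, 379 and 352 in Mock and 16, 11 and 26.3 with SNP, a change of -4.24, and ELF4, the photoperiod F-box protein FKF1, GI and TOC1 fell (-2.93, -2.55, -1.49 and -1.17). For each of these clock genes the groups do not overlap, which holds, in either direction, for 79.0% of all genes tested. The sources used here do not state the time of day of sampling of each group. For PRR9, RVE1 and FKF1, overlap or shared sequence leaves the assignment of reads uncertain.

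Protein families named alike in the RefSeq annotation were also counted, all 37 that had at least 40 tested genes. Pentatricopeptide repeat proteins, which bind and process RNA in mitochondria and chloroplasts, had 10 of 218 members higher and 173 (79.4%) lower, with a median of -1.54. The tetratricopeptide repeat-like family, a name that the annotation also gives to many pentatricopeptide repeat genes, had 19 of 259 higher and 181 (69.9%) lower (median -1.10). Leucine-rich repeat protein kinases had 10 of 104 higher and 82 (78.8%) lower (median -1.37), and C1 domain proteins rich in cysteine and histidine 6 of 90 higher and 66 (73.3%) lower (median -2.09). Peroxidases were lower in 36 of 49 cases (73.5%) and GDSL lipases in 32 of 48 (66.7%). Integrase-type DNA-binding proteins, a name that the annotation gives to many genes of the ERF family, had 18 of 56 higher and 23 lower. Their median was -0.09, and -0.59 with library-size scaling, unlike that of the listed ERF factors. Protein phosphatases 2C (22 of 51 higher, 10 lower) and DnaJ-domain chaperones (21 of 50 higher, 6 lower) had the highest shares of rises, 43.1% and 42.0%. Their medians of 0.26 and 0.35 turned to -0.24 and -0.14 with library-size scaling. The family counts are those under the authors' scaling and were not corrected for gene length, which fold changes followed. Families were described by this rule, which was set after their values were seen.

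**Figure D4:**
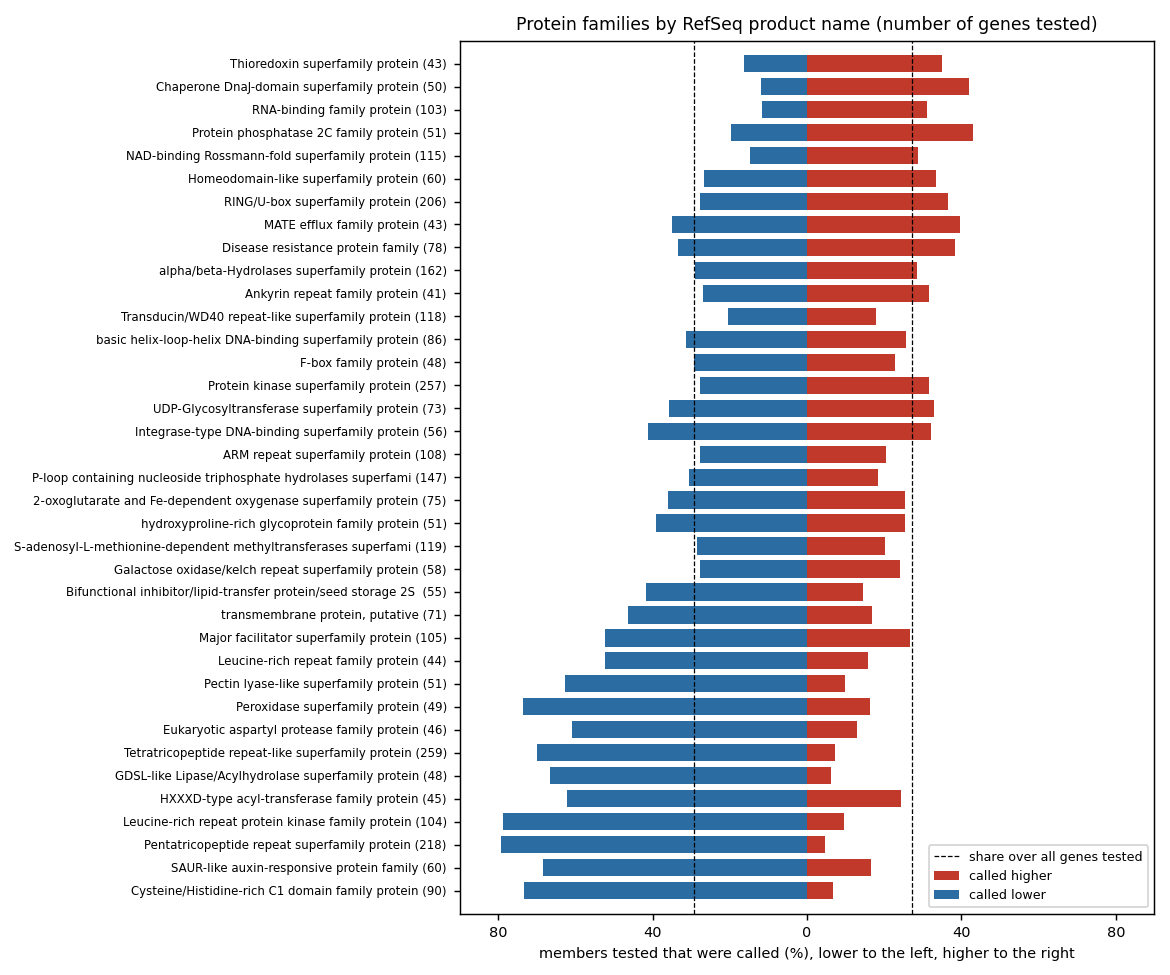
Percentage of the tested genes of 37 protein families that were called higher (red, to the right) or lower (blue, to the left) under the authors' scaling, ordered by the family median. Dashed lines mark 27.1% and 29.2%, the shares over all genes. Pentatricopeptide repeat proteins reach 79.4% lower and protein phosphatases 2C 43.1% higher.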

How the data were processed

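RNA of whole Col-0 seedlings was poly(A)-selected with a directional kit. Per the labels the authors used FastQC, STAR, DESeq2 and the build TAIR10. A version is stated for DESeq2 alone, in the paper's reporting summary. The counting tool, its use of strand and any gene filter are not given in the sources used here, and the methods text describes ap1/cal apices. The deposited values are named raw counts but are a normalized signal, i.e. estimated reads divided by 1 factor per library. Of low values 67.2% to 70.2% per library were whole multiples of 1 step (tolerance 0.001), 100% for genes with 1 annotated transcript and 12.6% to 13.3% for the others. Whole reads could thus not be recovered for most genes with more than 1 transcript, and no count test was run. The voom alternative used the values divided by this step.

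Genes with a value of at least 10 in 3 or more of 6 libraries were tested with limma 3.58.1 (R 4.3.3) on log2(value + 1) with a mean-variance trend and Benjamini-Hochberg adjustment, and called where the adjusted p was below 0.05 and the fold 1.5 or more. On simulated data of this comparison with 20271 genes, 200 of 200 changed genes were called, and 1 unchanged gene. The simulation had few changed genes, all well above the filter and changed by more than the fold required. It used 1 low dispersion for all genes and no difference in scaling between the groups. It therefore checks the code and does not measure the error rate of the calls reported here. Shares of signal were compared with exact permutation tests (scipy 1.17.1). Gene names and families are those of RefSeq (TAIR10.1), which matched 21662 identifiers (99.3%). Exon length, GC content, overlaps and shared windows were taken from the TAIR10.1 annotation and sequence, of which none is printed, as the builds differ. A gene that overlaps another, or has at least 1% of its 75-base windows in common with one, is called uncertain. These properties were at hand for 20144 of the genes tested (99.4%), and not for genes of the organelle genomes, which therefore carry no such mark. Whether the authors' counting used strand is not known, so opposite-strand partners are included.

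The members and the gene lists were chosen with earlier results of these data known. Named genes are up to 4 called members of each list with the largest change, every member of lists of 8 or fewer, the 10 largest rises and falls of the mean, the 10 largest fold changes each way at a mean of at least 100 in both groups, and the 10 with the highest mean among those at the floor in the other group. Another 87 genes were named after their values were seen. A gene that this rule names is not reported here, but is included in the numbers of named genes. Alternatives were no filter or a value of at least 50, pseudocounts of 0.5 and 5, library-size and upper-quartile scaling, no trend, voom weights, other thresholds, correction for gene length and GC, each library left out in turn and the replicate number as a block.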

Additional observations from a re-analysis of the deposited data

How the results depend on the processing

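With library-size scaling 3179 genes were called higher and 9329 lower, against 5494 and 5915, and upper-quartile scaling gave 4021 and 7649. The share of higher calls was 48.2%, 25.4% and 34.5%. Under the other alternatives the total stayed within 1.5 times of 11409 (11236 to 11400 with 1 library left out), and 0 genes were called with the other sign under any of those run. Leaving out 1 library gave 5407 to 5509 higher and 5800 to 5918 lower calls.

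Of 418 named genes 381 were called, 28 of which lost the call with library-size scaling and 8 with a library left out. Signs turned for 20, all of them not called. With library-size scaling these were MYB60 (-0.16), TAPX (-0.35), STR1 (-0.17), APL (-0.14), LHCB2.1 (-0.0065), NIR1 (-0.12), RCA (-0.21), PDF1 (-0.090), CYSC1 (-0.20), HSFA1A (-0.27), AT4G21870 (-0.43), NDB1 (-0.028), RBCS3B (-0.032), GSNOR1 (-0.10) and PIN2 (-0.34). With upper-quartile scaling they were TAPX (-0.12), HSFA1A (-0.037), AT4G21870 (-0.19) and PIN2 (-0.11). With correction for length and GC NCED3 was at 0.21, NDB3 at 0.092 and AT4G21870 at -0.31, and with voom weights NDB3 was at 0.0255. With 1 library left out the change ranged from -0.24 to 0.092 for FIT, with Mock replicate 3 and SNP replicate 2 (0.0088) turning the sign, from -0.47 to 0.21 for NCED3 (Mock replicate 1, 0.12, and SNP replicate 1), from -0.36 to 0.31 for NDB3 (Mock replicate 1, SNP replicate 1, 0.0031, and SNP replicate 3, 0.078), from -0.50 to 0.0205 for CYP94B3 (SNP replicate 2), from -0.31 to 0.0154 for SPCH (SNP replicate 1), from -0.11 to 0.21 for AT4G21870 (Mock replicate 2) and from -0.072 to 0.34 for PIN2 (Mock replicate 3). The cause was not tested.

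Of 72 list medians 15 changed sign with library-size scaling, 2 each with upper-quartile scaling and with the length and GC trend removed, and 3 without 1 library (guard cells, mitosis and nuclear photosystem subunits). Same-numbered libraries did not deviate together (correlations of 0.09, 0.07 and -0.04), and with the replicate block 11429 genes were called, with 0 named genes losing a call and 1 gaining one. Estimated reads are 22483300 to 45402000 per library, which limits genes near the floor.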
